A study of Glycine max with 16 samples.

Results

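Soybean leaves were compared between 2 points of a short warming curve: the growth temperature, called baseline, and the higher temperature at which photosynthesis was 20% below its optimum. The comparison used the 4 arrays labelled 20% inhibition and the 4 labelled baseline, 8 of the 16 arrays in the series, over all probe sets that are not array controls (61035 of 61170). The plants were Glycine max cultivar Williams 82, grown in pots at 22 °C, 60% relative humidity and a 10 h photoperiod, with 350 µmol of light per square metre per second. All were given fertilizer with 125 ppm nitrogen. Leaf blades of full size were taken from 4 randomly chosen plants. Baseline leaves were sampled at 22 °C with no named agent or genetic change in either group. For the warmer state, air temperature went up by 2 °C every 10 min towards 42 °C until the state known from earlier gas exchange was reached, and leaves were held there for 20 to 30 min before sampling. A full curve took 3 to 4 h, and the leaf temperature and clock time of each harvest do not appear in the sources used here. The other 8 arrays hold leaves at the photosynthetic optimum and at 30% inhibition, and they enter here for the estimate of spread and for values side by side.

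Heat unfolds proteins, and plant cells answer with chaperones. Small heat shock proteins hold unfolding proteins, HSP101 pulls proteins out of aggregates, and HSP90 and HSP70 refold or mature them. Heat shock factors are the transcription factors that bind heat shock elements in the promoters of such genes, and in Arabidopsis DREB2A acts upstream of one of them. In leaves, moderate heat first limits photosynthesis through Rubisco activase, the enzyme that keeps Rubisco active, and through the thylakoid membranes. The circadian clock times many of the same pathways, with LHY-type MYB factors highest near dawn and the evening complex, which contains LUX, highest near dusk.

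Signals are MAS5 intensities, a linear brightness with 1 value per probe set and array, and changes are differences in mean log2 signal, with the fit's standard error after the ± sign. A probe set passed when its Benjamini-Hochberg adjusted p, over 30517 probe sets bright enough to be tested, was under 0.05. Unless said otherwise, a gene is given by its brightest tested probe set, with n = 4 arrays a group. The labels do not say whether 1 plant gave leaves at several states or whether replicates came from separate growth batches, so p-values measure only the spread between these arrays. In whole leaves, fewer cells of a type and less RNA per cell cannot be told apart. Where all 4 arrays of 1 group lay below background and those of the other above it, the change is given as a lower bound. The bound, "at least N-fold", is taken against each array's background level.

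The 20% inhibition arrays had higher background than the baseline arrays, and replicate 3 had the highest. The background level was the 95th percentile of the array's foreign probe sets, those for organisms other than soybean (names beginning with PsAffx or HgAffx). It was 91.2, 81.9, 79.5 and 74.5 in baseline replicates 1 to 4 and 107.7, 129.2, 162.6 and 99.6 at 20% inhibition. The groups did not overlap, with means of 81.8 ± 7.0 (SD, n = 4) and 125 ± 28.1, or 112 ± 15.3 (SD, n = 3) without replicate 3. The exact two-sided permutation test gave p = 0.0286, which is the smallest possible with 4 arrays on each side, and 0.0762 after adjustment over 8 array readings. Between 4.44 and 5.97% of tested probe sets lay below background on the baseline arrays, against 6.88 to 16.1% at 20% inhibition, where replicate 3 again had the highest share. Replicate 3 stood more than 2-fold above the mean log2 signal of the 3 other arrays of its state at 1868 probe sets. It stood more than 2-fold below that mean at 2033. Replicate 4 did so at 1970 and 1262 probe sets, and replicates 1 and 2 at 816 to 823 above and 840 to 1320 below.

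Other array readings moved with the state too. The difference between the 3′ and 5′ control probe sets of GlutTrans, in log2, was 0.07 ± 0.25 at baseline and 0.89 ± 0.16 at 20% inhibition, and that of the second actin probe pair was 1.08 ± 0.06 and 1.40 ± 0.07 (exact permutation p = 0.0286 for each, adjusted p = 0.0762). For the first actin pair, GAPDH, ubiquitin, SucBP and 18S ribosomal RNA the exact p ranged from 0.0571 to 0.971. Of 835 tested foreign probe sets, 47 passed as higher and 2 as lower (40 and 7 without replicate 3). The median change of the 835 was 0.36, against -0.01 over all probe sets tested. The part of background and RNA quality in the gene results below was not tested. With each array's background level as a covariate, 7070 probe sets passed. Of the 396 genes with a product name that passed without it, 134 no longer did.

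Leaf marker genes were bright, and some markers of other tissues also lay above background. The 18 probe sets of 7 leaf genes summed to 385516 to 486570 at baseline and 368189 to 516315 at 20% inhibition, with 16 and 15 of them above background on every array. Of the 16 tested, 0 passed as higher and 6 as lower in limma (2 and 6 without replicate 3, and 1 and 6 at an unadjusted p under 0.05). Of 24 probe sets of seed storage genes, 17 lay below background on every array of each state. The 24 summed to 23839 to 35414 at baseline and 17986 to 25963 at 20% inhibition, with 4 and 3 above background on every array. The 11 nodule probe sets summed to 1963 to 2959 at baseline and 6134 to 9735 at 20% inhibition. Of the 3 tested, NOD33 alone passed, and its signal was 1589 ± 364 and 6877 ± 1747 (change 2.1 ± 0.22, adjusted p = 1.79e-06, and 1.98 without replicate 3). The other 2, N-36A and ENOD40B, differed by 0.10 and 0.14. Phloem markers summed to 9557 to 12485 and 5554 to 11775, and 3 of 11 tested probe sets fell, all of SUT1, a sucrose transporter (brightest probe set -0.99 ± 0.17, adjusted p = 0.000219). At an unadjusted p under 0.05, 4 of the 11 phloem probe sets were lower and 2 higher.

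Of the 30517 probe sets tested, 10863 passed, which is 35.6%. They were divided into 5190 higher (17%) and 5673 lower (18.6%) at 20% inhibition. Without replicate 3, 10285 passed (33.7%), 4982 higher (16.3%) and 5303 lower (17.4%). Both fits shared 9406 probe sets, 1457 passed only with all 4 arrays and 879 only without replicate 3, and 0 changed sign. The 4 values of the groups did not overlap at 9888 probe sets (32.4%), 4755 higher (15.6%) and 5133 lower (16.8%). Without replicate 3 they did not overlap at 11862 (38.9%), 5818 higher (19.1%) and 6044 lower (19.8%). The share that passed rose with brightness, from 16.3% in the dimmest of 4 equal classes of tested probe sets to 51.5% in the brightest. Changes of at least 2-fold were about as many up as down, 1941 and 2146, but the largest were rises: at 16-fold or more there were 72 and 29, and at 64-fold or more 33 and 2.

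Most of these probe sets could not be named. Of those that passed, 611 (5.62%) belonged to a gene with a product name in the array's annotation, 2526 only to a locus number and 7726 to no gene. Of 926 named genes tested, 175 rose and 221 fell, and without replicate 3 these counts were 162 and 212. The descriptions below cover those genes, in 50 lists by role, and read each list's counts beside the 17% and 18.6% of all probe sets. Where no count without replicate 3 is given, it was the same. Probe sets ending in _s_at or _x_at can bind related transcripts, so their values may include other family members.

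Heat shock genes gave the largest rises. All 8 tested probe sets of the 4 small heat shock protein genes passed as higher, with changes from 3.58 to 7.67 beside the bound for HSP22.5. Their median change was 6.92, or 5.89 when signals below background were raised to it, against -0.01 over all probe sets. One of these genes, HSP22.5, was dim at baseline and could be tested through its heated signals. HSP22.5 read 5.51, 2.54, 14.4 and 3.31 in baseline replicates 1 to 4, all below background, and 5412, 3927, 5339 and 3921 at 20% inhibition. Its rise was at least 56.3-fold (adjusted p = 2.91e-10), and at least 53.5-fold without replicate 3. HSP22.3 read 221, 158, 175 and 306 at baseline and 34293, 27985, 31866 and 34973 at 20% inhibition, a change of 7.27 ± 0.16 (adjusted p = 4.25e-14; 7.28 without replicate 3). The cytosolic HSP17.5-E was brighter still. It went from 361, 235, 347 and 499.8 to 55249, 48289.5, 54577 and 52762, a change of 7.24 ± 0.18 (adjusted p = 4.25e-14). Replicate 3 was neither the highest nor the lowest for HSP22.3 and HSP17.5-E.

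HSP23.9 already had a signal well above background at baseline. Its brightest probe set read 3330.1, 2858, 3472 and 5099.5 at baseline and 46728, 38741, 43349 and 44351 at 20% inhibition, a change of 3.58 ± 0.16 (adjusted p = 1.11e-10). Its 3 other probe sets gave 4.40, 4.56 and 6.59, so probe sets assigned to the same gene differed in size of change while sharing the direction. The 6.59 came from a probe set near background at baseline, at 57.5 ± 24.1 (mean ± SD), where log2 changes are inflated.

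The larger chaperones split by gene. HSP90A1, a heat-inducible form of HSP90, read 1388, 1183, 1086 and 3424 at baseline, where replicate 4 was the highest, and 64594, 62646, 59152 and 67389.6 at 20% inhibition. It rose by 5.33 ± 0.26 (adjusted p = 2.85e-10), as did its other 2 probe sets, with 5.57 and 5.86. HSP90-1 was bright before warming, at 14129, 12110.4, 12437 and 16622, and reached 24055, 23834, 22595 and 21302, a rise of 0.74 ± 0.14 (adjusted p = 0.000552), and 6 of its 7 probe sets passed. SB100, the soybean HSP101, read 288, 325, 319 and 384 at baseline against 11607, 15665, 12864 and 8826, a rise of 5.20 ± 0.29 (adjusted p = 1.15e-09). BAG6A, a member of the BAG family of HSP70 cochaperones, read 6.498, 44.5, 50.8 and 88.6 at baseline, below background on 3 of the 4 arrays, and 3945, 5155, 5354 and 3589 at 20% inhibition. Its change was 7.04 ± 0.64 (adjusted p = 4e-07), 6.25 without baseline replicate 1, the array on which it was lowest, and 5.71 when signals below background were raised to it.

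Cytosolic cochaperones and the chaperonin were read by few probe sets. Of 4 tested 0 rose and 1 fell in limma (1 and 1 without replicate 3), and at an unadjusted p under 0.05 the counts were 1 and 1. CCT-D, a subunit of the cytosolic chaperonin, fell by 0.69 ± 0.10 (adjusted p = 7.82e-05), from 2117, 1829, 1817 and 2188 to 1224, 1402, 1156 and 1152. RAR1-1, a cochaperone of HSP90, differed by 0.22 ± 0.10 (adjusted p = 0.11) and passed as higher without replicate 3 (0.30, adjusted p = 0.0318). HOP1, which links HSP70 and HSP90, differed by 0.28 ± 0.33 (adjusted p = 0.542).

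**Figure D1:**
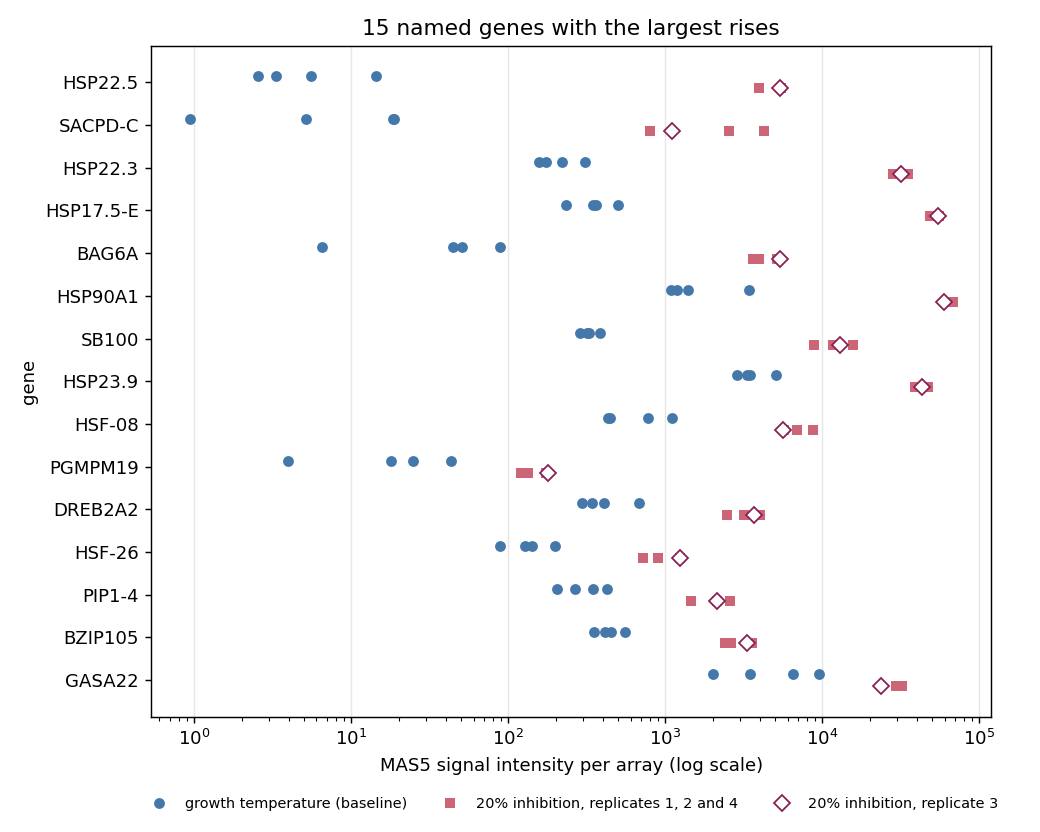
Signal per array for the 15 named genes with the largest rises, on a log axis of MAS5 intensity; circles are the 4 baseline arrays, squares the 20% inhibition replicates 1, 2 and 4, and open diamonds replicate 3. These genes were chosen for having no overlap between the groups, and replicate 3 lies among or close to the other 20% inhibition arrays.

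Of 14 tested probe sets of heat shock factors, 8 rose and 0 fell in limma (8 and 1 without replicate 3). They belong to 10 genes, and the list's median change was 0.92, or 0.69 without replicate 3. HSF-08 read 434, 1097, 445 and 769.6 at baseline and 6911, 8745, 5575 and 5729.6 at 20% inhibition, a rise of 3.38 ± 0.33 (adjusted p = 9.16e-07; 3.47 without replicate 3). HSF-26 went from 199, 141, 88.1 and 128 to 1239, 892, 1234 and 721, a rise of 2.90 ± 0.27 (adjusted p = 6.64e-07). The other probe sets that rose did so by 0.72 to 3.26. HSF-01 gave 2.82 on a dim probe set but 0.08 ± 0.13 on its brightest, which did not pass, and HSF-10 passed as lower only without replicate 3, at -0.88 against -0.67 with it.

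DREB2A2, a homologue of Arabidopsis DREB2A, rose by 3.01 ± 0.31 (adjusted p = 1.7e-06). Its signals were 339, 683, 295 and 404 at baseline and 3156, 4028, 3651 and 2487 at 20% inhibition, and the groups were far apart. Of the 17 tested probe sets of DREB and ERF factors, 6 rose and 2 fell (6 and 3 without replicate 3), and both falls were probe sets of EREB. EREB read 6601, 7619, 9706 and 7247 at baseline against 2655, 3352, 3195 and 2599, a change of -1.40 ± 0.16 (adjusted p = 4.25e-06). DREB rose by 1.02 ± 0.18 (adjusted p = 0.000248).

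In the endoplasmic reticulum, 2 chaperone genes stood out. BIP4, the HSP70 of that compartment, read 3897, 2949, 3275 and 5242 at baseline and 14210.5, 14940.2, 14030.1 and 16158 at 20% inhibition, a rise of 1.98 ± 0.14 (adjusted p = 3.33e-08). The protein disulfide isomerase PDIM-1 read 2412, 1519, 2068 and 2616 at baseline against 8452, 8182, 8163 and 8666, a rise of 1.99 ± 0.13 (adjusted p = 1.16e-08), with the 4 heated (20% inhibition) arrays between 8163 and 8666. PDIL-1 rose by 1.19 ± 0.14 (adjusted p = 6.01e-06), while PDIL6 fell by 0.61 ± 0.17 (adjusted p = 0.00911) with overlapping groups. PDIL-2, PDIQ-1A and PDIL-3b, with changes of 0.18, 0.43 and 0.00, did not pass. In all, 4 of 11 tested probe sets for protein disulfide isomerases of the reticulum rose and 1 fell. In the list of HSP70 and BiP 2 of 3 rose, both of BIP4, and BIP2 differed by 0.73 and did not pass.

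Cyclophilins, which turn proline bonds during folding, went both ways. Of 16 tested probe sets 8 rose and 5 fell, or 7 and 5 without replicate 3. CYP17 read 780.1, 669, 626 and 779.6 at baseline and 2439.7, 2495, 2442 and 2148 at 20% inhibition, a rise of 1.74 ± 0.13 (adjusted p = 3.5e-08). CYP11 read 2778, 2796, 2826 and 3509 at baseline against 909, 1519.6, 1071 and 855, a change of -1.48 ± 0.16 (adjusted p = 2.3e-06). CYP21 fell by 1.03 ± 0.11 (adjusted p = 1.84e-06), its 4 heated arrays lying between 1205 and 1369 and the baseline arrays between 2272 and 2908. The isomerase PPI was below background on all baseline arrays and on 2 heated ones. It passed as higher (adjusted p = 0.0087), at 36.1 ± 22.0 (mean ± SD) and 133 ± 7.8. With heated values near background, no bound on its rise is given.

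The clock genes gave the largest falls. Of 12 tested probe sets 9 fell and 1 rose, with a median change of -2.26, or -1.74 when signals below background were raised to it. Without replicate 3, 8 fell and 1 rose. MYB114, an LHY-type factor, read 2946, 3029, 4108 and 3085 at baseline and 50.8, 47.1, 60.4 and 63.4 at 20% inhibition, where all 4 arrays lay below background. It fell at least 26.6-fold (adjusted p = 3.03e-08), and at least 29.2-fold without replicate 3. MYB134 read 7272, 6615, 8277 and 6919 at baseline against 194, 189.8, 133 and 123, a change of -5.53 ± 0.16 (adjusted p = 4.08e-13). LHY itself read 11169.9, 9875, 10472 and 10084 at baseline against 1033, 573, 1186 and 846, a change of -3.56 ± 0.16 (adjusted p = 1.12e-10; -3.71 without replicate 3). MYB186 read 5181, 5954, 6477 and 5447 at baseline against 490.3, 524, 402 and 389.9, a change of -3.68 ± 0.19 (adjusted p = 4.39e-10).

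The RefSeq table of the current soybean assembly lists MYB134 as another name of MYB114 and both LHY and MYB186 as names of LCL1. These 4 may therefore report 2 genes. LCL3, a further member of the family, was dim: it read 677, 695, 949 and 585 at baseline and 90.1, 137, 11.2 and 85.9 at 20% inhibition, below background on 3 arrays. Its change was -3.61 ± 0.67 (adjusted p = 0.000477) with replicate 3, -2.81 without it and -2.52 when signals below background were raised to it. COL10 and COL2A, relatives of the photoperiod gene CONSTANS named here after their values were seen, fell by 0.57 and 0.96.

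LUXC, a homologue of the evening gene LUX, moved the other way. It read 167, 255, 230.3 and 240.2 at baseline and 1172, 1067, 1349.6 and 1163 at 20% inhibition, a rise of 2.43 ± 0.18 (adjusted p = 3.3e-08). Replicate 3 was its highest heated array, and without that array the rise was 2.36. Warming and the time since the start of the curve went together in this design and cannot be told apart. Among 6 light receptor probe sets, CRY2c rose by 1.01 ± 0.12 (adjusted p = 5.31e-06), CRY2B fell by 0.52 ± 0.18 (adjusted p = 0.0327, and 0.052 without replicate 3), and PHYA differed by -0.07 ± 0.18 (adjusted p = 0.785).

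**Figure D2:**
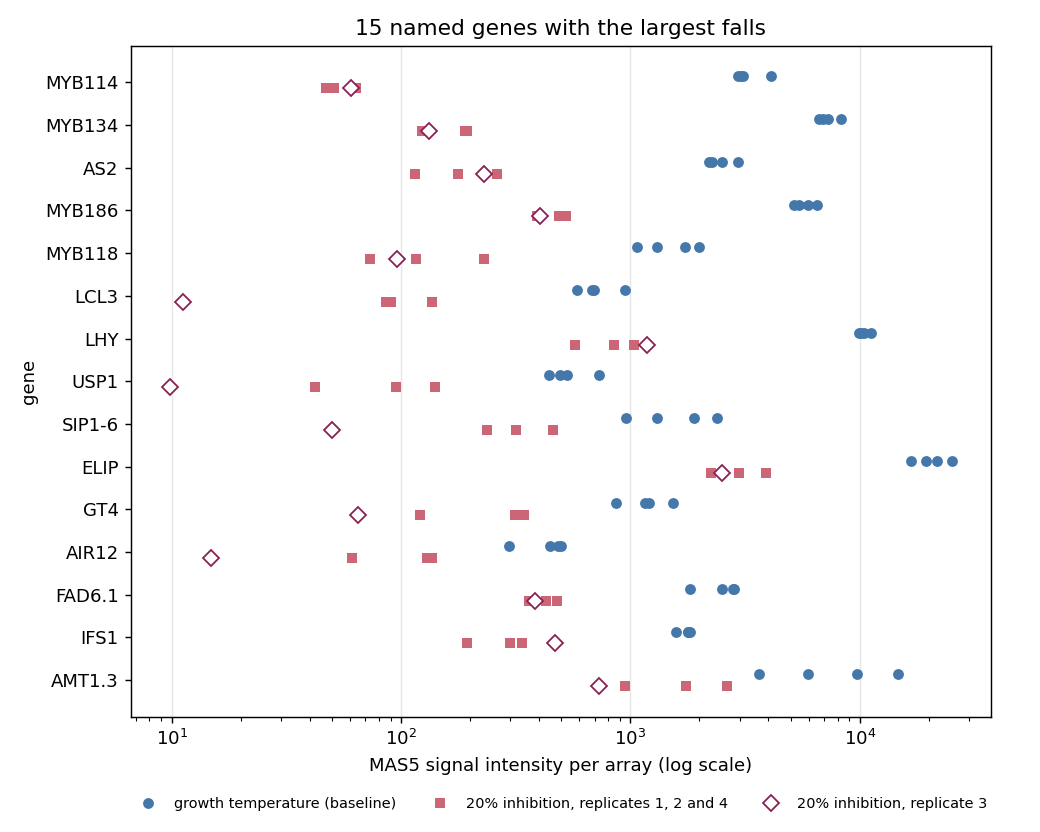
Signal per array for the 15 named genes with the largest falls, on a log axis of MAS5 intensity; symbols are circles for the 4 baseline arrays, squares for 20% inhibition replicates 1, 2 and 4, and open diamonds for replicate 3. In LCL3, USP1, SIP1-6, GT4 and AIR12 replicate 3 lies below the other heated arrays, while in MYB114, MYB134, MYB186 and FAD6.1 it lies among them.

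Nitrogen assimilation genes were mostly lower. Of 34 tested probe sets 18 fell and 1 rose (16 and 2 without replicate 3), with a median change of -0.57. AS2, an asparagine synthetase, read 2504, 2939, 2276 and 2212 at baseline and 261, 115, 229.9 and 177 at 20% inhibition, a change of -3.72 ± 0.29 (adjusted p = 7.99e-08). The ammonium transporter AMT1.3 varied widely at baseline, at 5933, 14717, 9773 and 3623, and read 949.7, 1745, 729 and 2638 at 20% inhibition, a change of -2.48 ± 0.51 (adjusted p = 0.00118). The nitrate reductases INR1 and INR2, named here after their values were seen and listed as the same gene in the current RefSeq table, fell by 2.28 and 2.1. The 1 member that rose was a glutamate decarboxylase, GAD, which makes GABA. It read 6921, 8772, 8436 and 6152 at baseline against 16711, 15744, 12215 and 18829.6, a rise of 1.07 ± 0.14 (adjusted p = 2.63e-05).

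PEP carboxylase, which supplies carbon skeletons for amino acids, fell at several genes while a kinase that activates it rose. PEPC17 read 5749, 6561, 5947 and 4970.2 at baseline and 1205, 1055, 906 and 1226 at 20% inhibition, a change of -2.41 ± 0.11 (adjusted p = 1.11e-10). PEPC4 read 1017, 752, 872 and 1281 at baseline against 328, 456, 368 and 356, a change of -1.36 ± 0.17 (adjusted p = 1.49e-05). The kinase PPCK2 read 519.7, 419, 931 and 712 at baseline against 1435, 1875, 1918 and 1255, a rise of 1.37 ± 0.24 (adjusted p = 0.00028). Of the list's 10 tested probe sets 6 fell and 1 rose, and PPCK1, PPCK3 and PPCK4 did not pass.

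The phenylpropanoid and flavonoid pathway, which makes lignin precursors, flavonols and the isoflavones typical of legumes, was lower at many steps. Of 70 tested probe sets 33 fell and 4 rose, with a median change of -0.77. Without replicate 3 the counts were 35 and 3 and the median -0.98. IFS1, an isoflavone synthase, read 1819, 1781, 1786 and 1588 at baseline and 335, 193, 471 and 299 at 20% inhibition, a change of -2.49 ± 0.23 (adjusted p = 4.01e-07; -2.70 without replicate 3, which was the highest heated array). The flavonol synthase FLS1 read 2149.8, 1702, 2042 and 1484 at baseline against 319, 334, 302 and 389, a change of -2.45 ± 0.22 (adjusted p = 3.22e-07). Early steps named after their values were seen also fell, with PAL2.1 at -1.53 and C4H at -1.04 on their brightest probe sets. For PAL2.1, phenylalanine ammonia-lyase, probe sets disagreed: 2 fell and 1 rose by 1.06. The rises included chalcone reductases. CHR4 read 295, 398, 369.6 and 491 at baseline against 1586, 1856, 2048 and 1307, a rise of 2.13 ± 0.19 (adjusted p = 2.69e-07). CHR5 read 800.3, 853, 2755 and 302 at 20% inhibition, its value on replicate 3 being more than 3 times any other array, and the call was lost without that array (adjusted p = 0.0441 and 0.152).

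Fatty acid desaturases set double bonds into membrane and storage lipids. Of 10 tested probe sets 4 rose and 5 fell. SACPD-C, a plastid stearoyl-ACP desaturase, read 0.934, 18.8, 5.17 and 18.4 at baseline, all below background, and 4273, 2552, 1098 and 793 at 20% inhibition. It rose at least 21.5-fold (adjusted p = 1.59e-05), and at least 25.2-fold without replicate 3, although the heated arrays differed among themselves by more than 5-fold. FAD6.1, an omega-6 desaturase of the plastid, read 2827, 1813, 2789 and 2506 at baseline against 428, 361, 384 and 481, a change of -2.57 ± 0.23 (adjusted p = 3.29e-07). FAD3C, which makes linolenic acid, read 1214, 757, 1157 and 462 at baseline against 236, 169, 111 and 628, a change of -1.87 ± 0.49 (adjusted p = 0.0065) with overlapping groups. FAD2-2, the desaturase of the reticulum that makes linoleic acid, rose by 0.72 ± 0.12 (adjusted p = 0.000207).

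Galactolipid and storage lipid genes were more often higher, with 7 of 13 tested probe sets up and 1 down. SDP1-3, a triacylglycerol lipase, read 299, 380.5, 209 and 376 at baseline and 1024, 862, 1032 and 718 at 20% inhibition, a rise of 1.55 ± 0.19 (adjusted p = 7.75e-06). DGAT1A, which adds the last acyl chain to triacylglycerol, read 452, 418, 472 and 652 at baseline against 1108, 1192, 1319 and 994, a rise of 1.22 ± 0.15 (adjusted p = 9.33e-06). MGD1, which makes the main galactolipid of chloroplast membranes, was the member that fell. It read 892, 1074, 822 and 963 at baseline against 347, 445, 392 and 305, a change of -1.34 ± 0.15 (adjusted p = 4.38e-06).

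Few photosystem genes passed. Of 14 tested probe sets for photosystem and light harvesting proteins 0 rose in limma (2 without replicate 3) and 3 fell. ELIP, the early light-induced protein that binds free pigment, read 19488, 25135, 21742 and 16807 at baseline and 3900.1, 2238, 2498 and 2965 at 20% inhibition, a change of -2.86 ± 0.21 (adjusted p = 3.5e-08). The other 2 falls were dimmer probe sets of CAB3, below background on all 4 heated arrays and lower by at least 1.05-fold, and of PSAD, at -1.52. Their brightest probe sets differed by 0.14 and 0.20 and did not pass. At an unadjusted p under 0.05 the list's counts were 0 higher and 4 lower.

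Rubisco activase was lower on some probe sets. Of 7 tested in that list, which includes carbonic anhydrase, 4 fell and 0 rose in limma (4 and 1 without replicate 3). RCA14 read 34129, 34859.8, 39335 and 28874 at baseline and 22948, 25592, 20518 and 26219 at 20% inhibition, a change of -0.52 ± 0.12 (adjusted p = 0.00216), and 3 of its 3 probe sets passed. RCAALPHA fell by 0.57 ± 0.13 (adjusted p = 0.00298), and its change was -0.45 without replicate 3, the lowest heated array in both genes. RCA11 and RCABETA differed by 0.43 ± 0.19 and -0.11 ± 0.27 and did not pass, although RCA11 passed without replicate 3 (0.58). The carbonic anhydrase CA1 was dim, at 60.5 ± 38.5 and 105 ± 62.6 (mean ± SD), and did not pass.

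In photorespiration, SHMT, a serine hydroxymethyltransferase, read 11436, 6921, 10355 and 10497 at baseline against 3325, 2808, 3064 and 4692, a change of -1.50 ± 0.20 (adjusted p = 1.91e-05). SHMT08m, the brighter of the 2 tested genes, differed by -0.12 ± 0.14 (adjusted p = 0.569). Among pigment genes, CHLH, a subunit of the magnesium chelatase of chlorophyll synthesis, read 19574, 17900.3, 21732 and 15132 at baseline against 9055, 8545, 4245 and 13086, a change of -1.19 ± 0.32 (adjusted p = 0.0081), with replicate 3 the lowest and -0.88 without it. HO1, a haem oxygenase, rose by 0.57 ± 0.10 (adjusted p = 0.000231). HEMB, an early enzyme of the same pathway, rose by 0.42 ± 0.16 (adjusted p = 0.0466) with overlapping groups, a call that was lost when any of 7 of the 8 arrays was left out, the exception being replicate 3.

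In the carotenoid and tocopherol list 3 of 25 tested probe sets rose and 6 fell. HPT1, the phytyltransferase of tocopherol synthesis, read 1280.5, 1511, 1611 and 788 at baseline and 225, 330.5, 143 and 514 at 20% inhibition, a change of -2.20 ± 0.34 (adjusted p = 8.99e-05; -1.89 without replicate 3). DXR1, an early enzyme of plastid isoprenoids, read 3180.4, 3324, 3391 and 3288 at baseline against 765, 923, 673 and 1499, a change of -1.84 ± 0.18 (adjusted p = 1.19e-06). HPPD, which makes homogentisate for tocopherol and plastoquinone, rose by 0.53 ± 0.15 (adjusted p = 0.0113).

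Aquaporins, channels for water, were spread over both directions, with 10 of 38 tested probe sets higher and 7 lower (9 and 6 without replicate 3). PIP1-4 read 426, 205, 264 and 344 at baseline and 2126, 1459.9, 2125 and 2568 at 20% inhibition, a rise of 2.76 ± 0.22 (adjusted p = 1.16e-07). PIP2-4 rose by 1.13 ± 0.21 (adjusted p = 0.000572). SIP1-6 read 1306, 1895, 2389 and 954 at baseline against 238, 317, 49.95 and 459, a change of -2.92 ± 0.50 (adjusted p = 0.000233), or -2.24 without replicate 3. PIP2-1 was dim and variable, with heated values of 45.7, 2.402, 44.9 and 109, 3 of them below background. Its change of -2.88 ± 0.89 (adjusted p = 0.0179) was lost without baseline replicate 1 or 3 (adjusted p = 0.0601 and 0.0555), and the change was -1.72 without heated replicate 2 and -3.55 without heated replicate 4. With signals below background raised to it the change was -0.67.

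Genes known from drying seeds and water stress were partly higher. Of 12 tested dehydration and late embryogenesis probe sets 4 rose and 0 fell. ERD15 read 1151, 2111, 1389.6 and 1519.8 at baseline and 6906, 5515, 5676 and 5639 at 20% inhibition, a rise of 1.97 ± 0.16 (adjusted p = 1.5e-07). MAT1, listed as a dehydrin, rose by 1.31 ± 0.34 (adjusted p = 0.00613) with overlapping groups. Of 12 tested seed maturation probe sets 7 rose and 2 fell (6 and 2 without replicate 3). The list holds 33 probe sets, and members dim at baseline, such as PGMPM19 and PM12, could be tested through their heated signals. The share of rises in this list is therefore not read beside that of all probe sets. PGMPM19 read 3.95, 43.03, 17.9 and 24.7 at baseline, all below background, and 119.6, 175, 178 and 134 at 20% inhibition, a rise of at least 1.83-fold (adjusted p = 0.000637). PM12 was likewise below background on every baseline array and rose at least 3.02-fold (adjusted p = 0.000151), and PM23 fell by 1.01 ± 0.10 (adjusted p = 1.6e-06). PM37, named after its values were seen, was bright in both states, at 13287 ± 1190 and 40603 ± 1654 (mean ± SD). It rose by 1.62 ± 0.11 (adjusted p = 1.18e-08), and by 2.15 ± 0.12 on another probe set. Among the seed storage markers 0 of 4 tested probe sets passed in limma, and 1 was lower at an unadjusted p under 0.05.

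Sugar genes were more often lower. Of 22 tested probe sets for sugar transport, starch and sucrose 11 fell and 3 rose, with a median change of -0.73. SWEET34, a sugar exporter, read 1416, 1677, 1749 and 1119 at baseline and 504, 387, 480.5 and 512 at 20% inhibition, a change of -1.65 ± 0.16 (adjusted p = 1.05e-06). SWEET28 fell by 1.63 ± 0.24 (adjusted p = 7.28e-05). The invertase inhibitor C/VIF2 read 743, 418, 520.0 and 650.4 at baseline against 2691, 1822, 3100.1 and 1747, a rise of 2.00 ± 0.23 (adjusted p = 4.13e-06). The beta-amylase BMY1 rose by 0.83 ± 0.24 (adjusted p = 0.0114).

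Polyamine synthesis was lower at 5 of 7 tested probe sets, which belong to 2 of the 3 genes tested, and higher at 0. SAMDC, S-adenosylmethionine decarboxylase, read 10027, 7534, 9172 and 12517 at baseline and 2043, 2807, 3913 and 1772 at 20% inhibition, a change of -1.94 ± 0.26 (adjusted p = 2.83e-05; -2.16 without replicate 3). ADC, arginine decarboxylase, read 6550.1, 6092, 5674 and 8496 at baseline against 2645, 2435, 4798 and 1899.8, a change of -1.26 ± 0.21 (adjusted p = 0.000237; -1.52 without replicate 3). Replicate 3 was the highest heated array for both. The list's other falls were all on further probe sets of ADC. In the cell wall list 5 of 20 probe sets fell and 1 rose (4 and 2 without replicate 3). XET1, which cuts and joins xyloglucan, rose by 1.16 ± 0.20 (adjusted p = 0.000257). Expansins loosen the wall, and EXP2 fell by 1.46 ± 0.37 (adjusted p = 0.00509), whereas EXP4, at -1.36 (adjusted p = 0.0144), lost its call without replicate 3 (adjusted p = 0.0516) or without baseline replicate 1 (0.0540).

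Among genes of jasmonate synthesis and lipoxygenases 7 of 50 probe sets rose and 4 fell. CYP74A2, an allene oxide synthase, rose by 1.46 ± 0.13 (adjusted p = 2.49e-07) and COI1, the jasmonate receptor, by 0.91 ± 0.11 (adjusted p = 6.44e-06). AOS2, a further allene oxide synthase named after its values were seen, fell by 0.78 ± 0.18 (adjusted p = 0.00272). The allene oxide cyclases AOC3 and AOC4, the step after the synthases, fell by 1.50 ± 0.31 and 1.67 ± 0.28 (adjusted p = 0.0013 and 0.000226). For gibberellin and GASA genes 6 of 20 rose and 2 fell. GASA22 read 3462, 2023, 6492 and 9448 at baseline and 30875, 29472, 23579 and 32119 at 20% inhibition, a rise of 2.66 ± 0.34 (adjusted p = 1.34e-05). GAI1, a DELLA repressor of gibberellin responses, fell by 1.13 ± 0.23 (adjusted p = 0.00105).

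Ethylene genes gave 0 of 4 probe sets past the threshold in limma, and 0 at an unadjusted p under 0.05, with EIN4 and ACS1 at 0.16 and 1.06 on the brightest probe set. For auxin 1 of 6 fell (0 without replicate 3), the receptor TIR1C (change -0.38 ± 0.13, adjusted p = 0.0363), and without replicate 3 its adjusted p was 0.123. The other auxin genes, AFB3B, LAX11, AUX22 and AUX28, did not pass, with changes from -0.85 to 0.71. For brassinosteroids CYP90A15, a synthesis enzyme, rose by 0.92 ± 0.22 (adjusted p = 0.00344) and BIN2, the kinase that blocks the signal, fell by 0.53 ± 0.10 (adjusted p = 0.000595). The remaining 6 of 8 brassinosteroid probe sets did not pass, BRI1B among them at 0.16 ± 0.16.

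Of 87 tested bZIP probe sets 23 rose and 10 fell (19 and 10 without replicate 3). BZIP105 read 451, 556, 353 and 414 at baseline and 3586, 2385, 3326 and 2604 at 20% inhibition, a rise of 2.75 ± 0.19 (adjusted p = 1.9e-08). BZIP61, below background on 3 baseline arrays, rose by 1.77 ± 0.35 (adjusted p = 0.000773). BZIP125 and BZIP83 fell by 1.13 ± 0.23 and 0.85 ± 0.25 (adjusted p = 0.00111 and 0.0141). Of 33 NAC probe sets 11 rose and 3 fell, but 7 and 3 without replicate 3. NAC4 and NAC27, read by 2 probe sets of the same sequence cluster, rose by 1.61 ± 0.49 and 1.38 ± 0.42 (adjusted p = 0.0175 and 0.0164), and both calls were lost without baseline replicate 3 (adjusted p = 0.0521 and 0.0578). That of NAC4 was also lost without baseline replicate 1 (adjusted p = 0.0540).

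WRKY factors, many of them tied to defence, fell more often than they rose. Of 89 tested probe sets 14 fell and 3 rose, and without replicate 3 the counts were 14 and 0. WRKY32 read 1133, 1574, 1059 and 1113 at baseline and 550.2, 400.0, 637 and 434 at 20% inhibition, a change of -1.28 ± 0.19 (adjusted p = 5.48e-05). At an unadjusted p under 0.05, 14 were lower and 9 higher. WRKY6 read 995, 679, 438 and 1506 at baseline against 2653, 2401, 4373 and 818, with overlapping groups and replicate 3 the highest. Its rise of 1.42 ± 0.43 (adjusted p = 0.016) became 1.09 (adjusted p = 0.0573) without replicate 3. WRKY27 likewise rose by 0.62 ± 0.21 with all arrays and by 0.44 (adjusted p = 0.114) without it. In both directions the shares, 15.7% lower and 3.37% higher, lay below those of all probe sets.

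Of 66 tested MYB probe sets outside the clock list 14 rose and 18 fell (16 and 20 without replicate 3). MYB118 read 1306, 1999, 1723 and 1065 at baseline and 116, 73.5, 96.02 and 230.4 at 20% inhibition, a change of -3.66 ± 0.51 (adjusted p = 3.88e-05). Of its heated values 2 lay below background, and with signals below background raised to it the change was -3.26. MYB127 read 346, 264, 301 and 340.4 at baseline against 798, 1022, 1299.7 and 924, a rise of 1.68 ± 0.19 (adjusted p = 4e-06). MYB13 rose by 1.68 ± 0.39 (adjusted p = 0.00298; 1.35 without replicate 3) with overlapping groups, and MYB173 fell by 1.90 ± 0.40 (adjusted p = 0.00133).

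**Figure D3:**
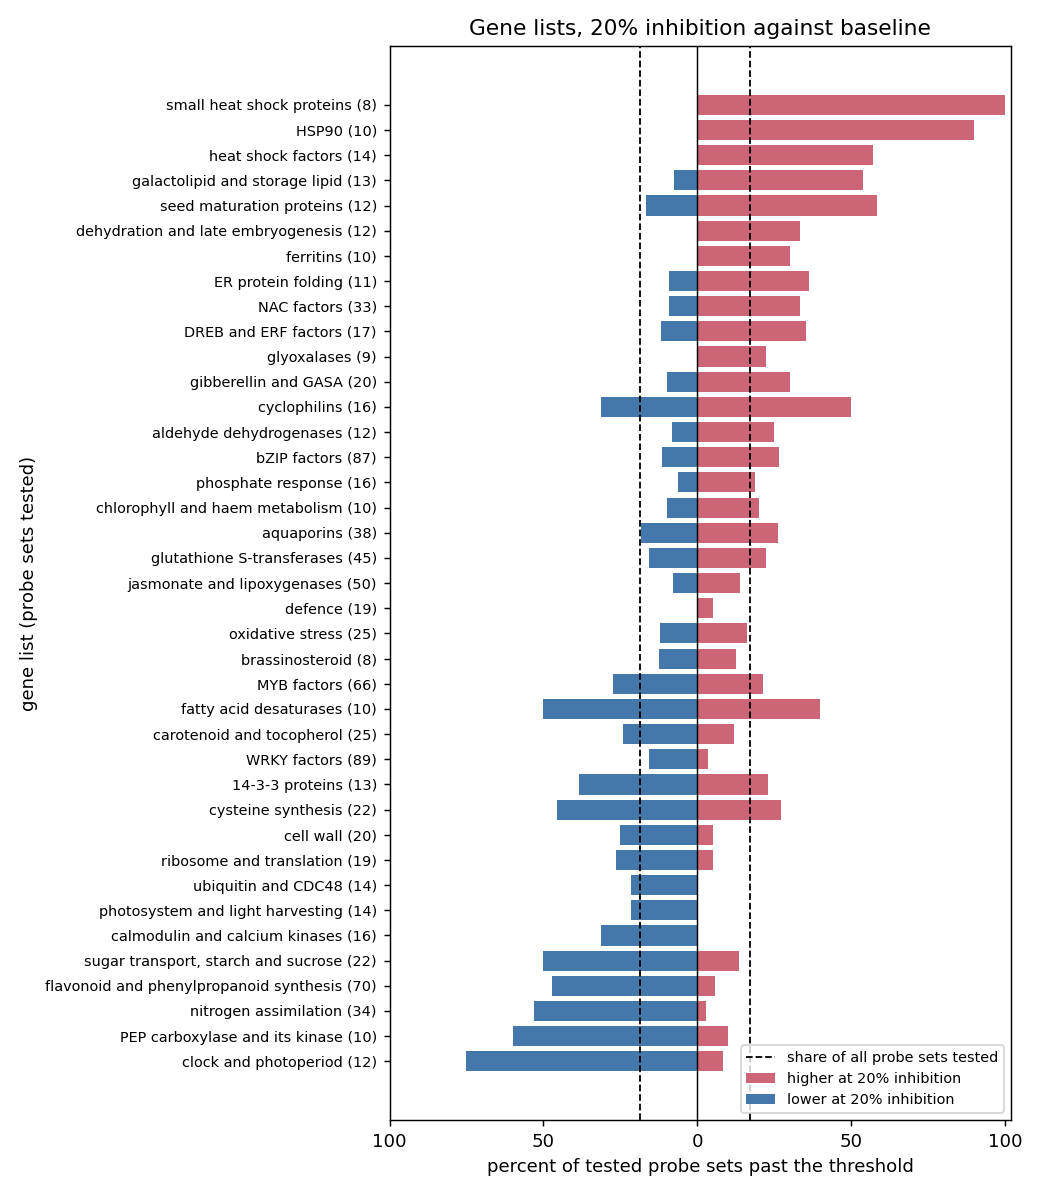
Percent of tested probe sets past the threshold in each gene list with at least 8 tested, higher at 20% inhibition to the right and lower to the left; numbers in brackets are probe sets tested and dashed lines mark the shares over all probe sets, 17% higher and 18.6% lower. Small heat shock proteins (8 of 8 higher) and clock genes (9 of 12 lower) form the ends. Members below background on every baseline array, such as HSP22.5, SACPD-C, PGMPM19 and PM12, could be tested through their heated signals. The share of rises among seed maturation proteins is therefore not read beside the dashed line.

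Enzymes against oxidative damage stayed near the background share, with 4 of 25 probe sets higher and 3 lower. APX1, a cytosolic ascorbate peroxidase, rose on its brightest probe set by 0.68 ± 0.14 (adjusted p = 0.00129), while 2 dimmer probe sets of it fell by 0.54 and 0.56. SOD1 rose by 0.50 ± 0.16 (adjusted p = 0.0249; 0.0513 without replicate 3) and AOX2, an alternative oxidase, fell by 0.36 ± 0.14 (adjusted p = 0.0456; 0.147 without replicate 3). The ferritin SFERH-3, an iron store, rose by 0.67 ± 0.12 (adjusted p = 0.000409), and 3 of 10 ferritin probe sets rose in all (2 without replicate 3). SFERH-2, SFERH-4 and H-1 did not pass on their brightest probe sets, with changes of 1.06 ± 0.41, 0.42 ± 0.35 and -0.16 ± 0.32.

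Glutathione S-transferases, which conjugate toxic compounds, gave 10 of 45 probe sets higher and 7 lower (8 and 8 without replicate 3). GSTL7 read 3247, 3407, 3489.6 and 3958 at baseline and 7293, 8692, 9497 and 8723 at 20% inhibition, a rise of 1.28 ± 0.14 (adjusted p = 3.03e-06). GSTU28 read 1593, 1426, 4253 and 7857 in the heated replicates, with replicates 3 and 4 well above 1 and 2. Its rise of 1.93 ± 0.65 (adjusted p = 0.0284) was lost without replicate 3 (adjusted p = 0.0688), without replicate 4 (0.0901) and without baseline replicate 2 or 3 (0.0629 and 0.0639). GSTU3 read 17031, 15029, 19182 and 15365 at baseline against 6411, 6674, 3518 and 6859, a change of -1.55 ± 0.20 (adjusted p = 1.43e-05), and GSTU1 fell by 0.77 ± 0.17 (adjusted p = 0.00194). The glyoxalase GLYII-6 rose by 1.02 ± 0.13 (adjusted p = 1.38e-05) and by 1.09 ± 0.15 on its other probe set (adjusted p = 2.37e-05), the 2 of 9 that passed in that list.

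In cysteine and methionine synthesis 6 of 22 probe sets rose and 10 fell. OAS-TL6, a cysteine synthase, read 3244, 5185, 4648 and 3302 at baseline and 1239, 1540.0, 1079 and 794 at 20% inhibition, a change of -1.83 ± 0.21 (adjusted p = 4.63e-06). CGS2, a cystathionine gamma-synthase of methionine synthesis, fell by 0.79 ± 0.08 (adjusted p = 1.42e-06) and all 4 of its probe sets passed. OAS-TL1 is a name of 2 genes in the annotation. LOC547631, with that synonym, and OAS-TL4 rose by 0.59 ± 0.13 and 0.30 ± 0.09 (adjusted p = 0.00186 and 0.0144). The gene with OAS-TL1 as its symbol, named after its values were seen, rose by 0.28 ± 0.09 on its brightest probe set (adjusted p = 0.0234) and by 1.55 ± 0.19 on the other (adjusted p = 9.3e-06). Aldehyde dehydrogenases gave 3 rises and 1 fall among 12 probe sets (3 and 0 without replicate 3). ALDH10A2, of the betaine aldehyde dehydrogenase family, read 3711, 3398, 3764 and 5139 at baseline against 10090.2, 8817, 8737 and 8678, a rise of 1.20 ± 0.15 (adjusted p = 1.53e-05). ALDH7B1 rose by 0.81 ± 0.13 (adjusted p = 0.000112), and ALDH2C8 fell by 0.90 ± 0.31 (adjusted p = 0.0343; 0.0841 without replicate 3).

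Among 13 probe sets of 14-3-3 proteins, which bind phosphorylated partners, 3 rose and 5 fell (2 and 5 without replicate 3). GF14B read 3238, 4033, 3971 and 2942 at baseline and 6456, 6428, 6140.2 and 6556 at 20% inhibition, a rise of 0.86 ± 0.12 (adjusted p = 2.72e-05). SGF14G read 8409.6, 6466, 7614 and 8051 at baseline against 4117, 4452, 3927 and 4184, a change of -0.87 ± 0.10 (adjusted p = 3.3e-06). GF14A rose by 0.77 ± 0.11 (adjusted p = 3.59e-05), and SGF14n fell by 1.16 ± 0.31 (adjusted p = 0.00763) with overlapping groups.

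Calcium and kinase genes fell where they moved. Of 16 probe sets for calmodulins and calcium-dependent kinases 0 rose and 5 fell in limma (0 and 6 without replicate 3), the 5 all being of the calmodulins SCAM-2 and SCAM-3. SCAM-2 fell by 0.35 ± 0.10 (adjusted p = 0.00909) on its brightest probe set. SCAM-3, with changes of -1.51 ± 0.20 and -1.32 ± 0.19, passed only on dimmer probe sets, and its brightest did not pass. For the IQD calmodulin-binding proteins IQD41 fell by 0.51 ± 0.12 (adjusted p = 0.00227), while IQD45, IQD40 and IQD58, at -0.11 ± 0.33, -0.47 ± 0.29 and 0.54 ± 0.21, did not pass. IQD58 passed as higher without replicate 3 (0.77, adjusted p = 0.00306). Of 5 WNK kinases 3 fell: WNK13 by 1.77 ± 0.26 (adjusted p = 4.83e-05), WNK8 by 0.76 ± 0.19 and WNK1 by 0.57 ± 0.13 (adjusted p = 0.00468 and 0.00251). WNK13 read 1001, 1628, 955 and 781 at baseline and 305, 241, 381 and 317 at 20% inhibition. WNK3 and WNK5, at 0.41 ± 0.24 and -0.58 ± 0.31, did not pass.

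Of 14 probe sets for ubiquitin and CDC48 3 fell and 0 rose. SKIP16, an F-box protein, fell by 0.54 ± 0.11 (adjusted p = 0.00121) and the ubiquitin SUBI-1 by 0.30 ± 0.08 (adjusted p = 0.00765), from 29079 to 31887 at baseline to 24196 to 25639 at 20% inhibition. The third fall was a dim probe set of LOC100791065, a gene with SUBI-1 as a synonym, named after its values were seen. It read 189 ± 68.8 (mean ± SD) at baseline and was below background on all 4 heated arrays, a fall of at least 1.45-fold (adjusted p = 0.00762), and the gene's 5 other probe sets did not pass. CDC48, COP10 and UBC4 differed by -0.38 ± 0.15, -0.29 ± 0.14 and -0.06 ± 0.18 and did not pass. In the ribosome and translation list 5 of 19 fell and 1 rose. RPL37 fell by 0.54 ± 0.14 (adjusted p = 0.00709) and RPL2 by 0.50 ± 0.10 (adjusted p = 0.000739). Their other probe sets also passed, with -0.71 and -0.51.

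Among 16 probe sets of the phosphate response, PHR13 rose by 0.80 ± 0.13 (adjusted p = 0.000148) and PHR20 fell by 1.31 ± 0.38 (adjusted p = 0.0128), with 3 rises and 1 fall in all (2 and 1 without replicate 3). PHR18 rose by 0.69 ± 0.25 (adjusted p = 0.0384) with overlapping groups, and its call was lost without heated replicate 2 or 4 (0.0546 and 0.109) or baseline replicate 2 or 3 (0.116 and 0.133). In the defence list 1 of 19 probe sets rose, HIR3, a hypersensitive-induced reaction protein, by 0.52 ± 0.10 (adjusted p = 0.000553), and 0 fell in limma (2 and 1 without replicate 3). Where a list had 0 calls in one direction, the count there at an unadjusted p under 0.05 was 1 for heat shock factors, cochaperones, Rubisco activase, glyoxalases, dehydration, calmodulins, IQD proteins and defence, and 0 for the other such lists.

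The optimum and 30% inhibition arrays were set against the same baseline arrays, so the 3 comparisons share their controls. At the optimum 3932 probe sets passed (12.9%), 2023 higher (6.63%) and 1909 lower (6.26%). At 30% inhibition 10579 passed (34.7%), 5170 higher (16.9%) and 5409 lower (17.7%). Set against the optimum itself, 5059 probe sets passed at 20% inhibition (16.6%), 2403 higher (7.87%) and 2656 lower (8.7%). Between 30 and 20% inhibition 0 passed in limma, where the lowest adjusted p was 0.9997 and 1193 probe sets had an unadjusted p under 0.05. A p that misses the threshold does not show that these states were alike.

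Some genes had passed by the optimum and others had not. HSF-26 was higher than baseline by 2.96 ± 0.27 at the optimum (adjusted p = 3.34e-06), 2.90 ± 0.27 at 20% and 3.08 ± 0.27 at 30% inhibition. Its step from the optimum to 20% inhibition was -0.06 ± 0.27 (adjusted p = 0.909). DREB2A2 differed from baseline by 0.09 ± 0.31 at the optimum (adjusted p = 0.904), and its step from there to 20% inhibition was 2.92 ± 0.31 (adjusted p = 1.15e-05). HSP22.5 was below background on every array of baseline and the optimum and reached 4649.6 ± 839 (mean ± SD) at 20% and 4421 ± 2090.0 at 30% inhibition.

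HSP22.3 rose by 2.23 ± 0.16 at the optimum (adjusted p = 2.94e-07) and by a further 5.04 ± 0.16 to 20% inhibition (adjusted p = 6.82e-12). For HSP90A1 the first part was the larger, with 3.64 ± 0.26 at the optimum and a step of 1.69 ± 0.26 (adjusted p = 2.75e-07 and 0.000388). HSP90-1 was highest at the optimum, at 30143 ± 1262, and its step from there to 20% inhibition was -0.39 ± 0.14 (adjusted p = 0.064).

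Among the falls, PEPC4 and CYP11 did not pass at the optimum, with -0.08 ± 0.17 and -0.20 ± 0.16 (adjusted p = 0.835 and 0.486). Their steps to 20% inhibition were -1.28 ± 0.17 and -1.29 ± 0.16 (adjusted p = 0.000111 and 4.42e-05). LHY fell by stages, from 10400.1 ± 569.7 at baseline to 4376 ± 249.6 at the optimum, 909.6 ± 264 at 20% and 724 ± 68.5 at 30% inhibition. AS2 went from 2483 ± 329 to 972 ± 461, 196 ± 64.1 and 147 ± 27.1 over the same states. LUXC differed by 0.47 ± 0.18 at the optimum (adjusted p = 0.0935) and reached 1188 ± 118 at 20% and 1428 ± 185 at 30% inhibition. In the clock list 5 of 12 probe sets had fallen and 0 risen at the optimum, and 9 and 1 at 30% inhibition.

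**Figure D4:**
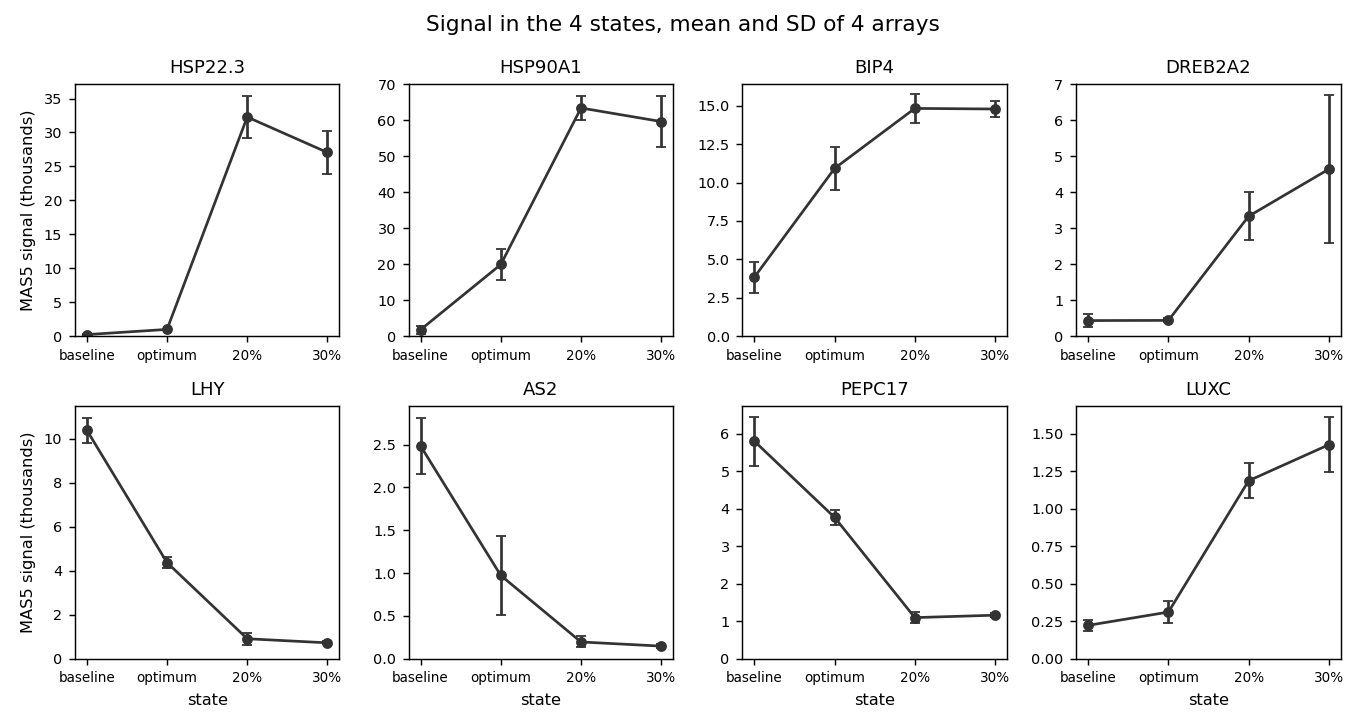
Mean MAS5 signal, divided by 1000, for 8 genes in the 4 states, with bars of 1 SD over 4 arrays and lines joining the means; each panel has its own axis starting at 0. The means of HSP22.3, DREB2A2 and LUXC at 20% inhibition lie far above those at the optimum, although HSP22.3 had already passed as higher there, by 2.23 ± 0.16. HSP90A1 and BIP4 had also passed at the optimum, and the means of LHY, AS2 and PEPC17 step down.

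Leaving out replicate 3 of 20% inhibition took the call from 52 of the 396 genes with a product name that passed, and 0 changed direction. Of the 172 genes chosen for the text by the rule given with the methods, 135 passed and 10 of those lost their call. The 10 were CRY2B, WRKY6, WRKY27, CHR5, SOD1, AOX2, GSTU28, TIR1C, EXP4 and ALDH2C8. Each of these also lost its call without at least 1 other array, as given above for GSTU28 and EXP4. For CRY2B those were baseline replicates 2, 3 and 4 and heated replicate 1 (adjusted p from 0.0596 to 0.119). For WRKY6 it was baseline replicate 3 (0.0615), and for WRKY27 baseline replicates 1, 3 and 4 (0.0619 to 0.117). For CHR5 they were baseline replicates 1, 2 and 3 and heated replicates 1 and 2 (0.0521 to 0.131), and for SOD1 baseline replicates 1 and 4 and heated replicate 1 (0.0558 to 0.0770). For AOX2 they were baseline replicates 1, 2 and 3 and heated replicate 2 (0.0859 to 0.121), for TIR1C baseline replicates 1, 2 and 3 (0.0848 to 0.0873), and for ALDH2C8 all 4 baseline replicates and heated replicate 1 (0.0578 to 0.115). Over all probe sets that passed, the median move was 0.06 and the largest 1.35 on the log2 scale. Moves by more than 1.5 times were found for LCL3, USP1, SIP1-6 and AIR12, all dim in the heated leaves. USP1 read 528, 731, 493 and 441 at baseline and 42.3, 94.99, 9.86 and 141 at 20% inhibition, a change of -3.47 ± 0.59 with replicate 3 and -2.70 without it (adjusted p = 0.000227 and 7.76e-05). With signals below background raised to it, as on 3 heated arrays for USP1 and 2 for AIR12, the changes of these genes were -2.01 and -1.61. AIR12, a protein of the plasma membrane, read 499, 295, 483 and 448 at baseline against 137, 60.9, 14.8 and 129, a change of -2.74 ± 0.68 and -2.04 (adjusted p = 0.00452 and 0.0126). GT4, a glycosyltransferase, read 1155, 869, 1531 and 1205 at baseline against 121, 342, 64.98 and 313, a change of -2.78 ± 0.45 and -2.31 (adjusted p = 0.000151 and 0.000287). In each of these genes replicate 3 gave the lowest of the 8 values.

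Of the 135, 34 no longer passed with the background level as a covariate. These were AIR12, AOC3, AOX2, ALDH2C8, BZIP83, CHLH, CHR5, CRY2B, CYP90A15, EXP2, EXP4, FAD3C, GSTU1, GSTU28, HEMB, HPPD, IQD41, MAT1, MYB13, OAS-TL4, PDIL6, PHR18, PHR20, PIP2-1, PPI, RCAALPHA, SCAM-2, SGF14n, TIR1C, WNK1, WNK8, WRKY6, WRKY8 and WRKY27. None of the 15 largest rises was among them, and of the 15 largest falls AIR12 was.

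**Figure D5:**
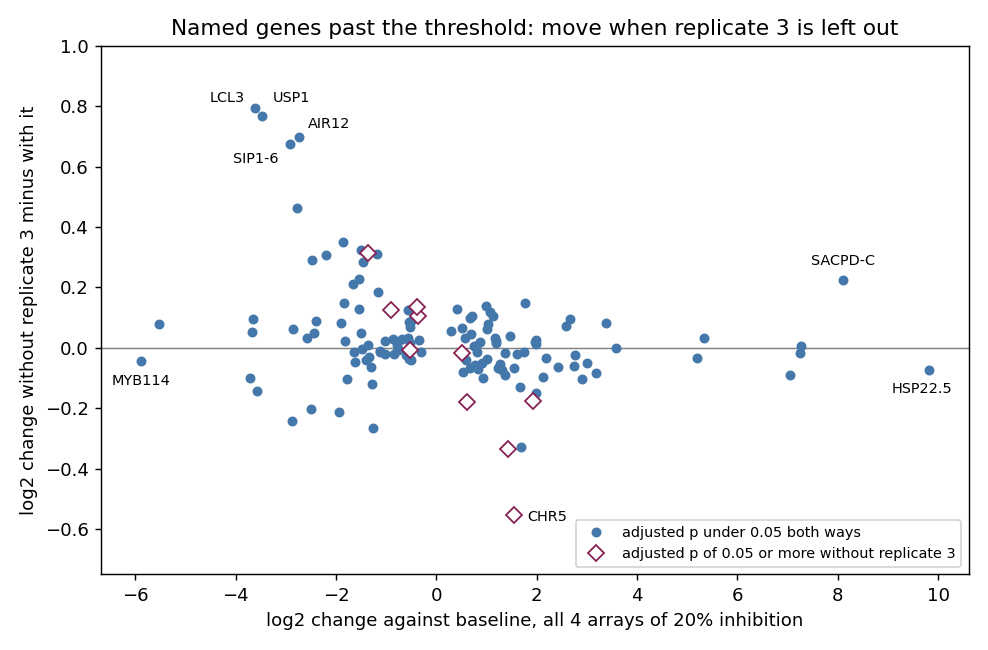
Move of the log2 change when replicate 3 of 20% inhibition is left out (vertical axis, without minus with) against the change with all 4 arrays (horizontal axis), for the 135 genes chosen for the text that passed; open diamonds are the 10 genes that no longer passed, and the horizontal line marks no move. The values of HSP22.5, SACPD-C and MYB114 are fitted ones of genes below background in 1 group, LCL3, USP1, SIP1-6 and AIR12 move upward the most, and CHR5 moves downward the most.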

How the data were processed

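RNA from soybean leaf blades was measured on 16 Affymetrix arrays, 4 in each of 4 states, and all 16 deposited columns could be matched to a sample. The deposited values are intensities computed with MAS5, per the submitters' processing notes, on a linear scale. Tested on the values, each array had the same 2% trimmed mean, so absolute levels between arrays rest on that scaling. MAS5 takes 1 array at a time and can give values near 0 to dim probe sets, which inflates their log2 changes.

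The log2 signals of all 16 arrays were fitted with 1 mean per state in limma 3.58.1 (R 4.3.3; lmFit, then eBayes with trend), and p-values were adjusted by Benjamini-Hochberg over 30517 probe sets, those with a mean log2 signal above the median of non-control probe sets (a signal of 67.6). The threshold was an adjusted p of 0.05. Single array readings were compared by exact two-sided permutation tests. Probe sets were named through the platform annotation and the RefSeq table of assembly Glycine_max_v4.0. Of 8677 probe sets with 1 gene, 8652 were found there, 370 had several genes and 52123 none. Genes with only a locus number carry no product title in these tables and are not described.

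Genes named in the text were the 15 largest rises and 15 largest falls without overlap between the groups and with the same direction without replicate 3, and for each list the 2 largest rises and 2 largest falls past the threshold, or the 2 brightest members where none passed, and every tested member of a list of up to 6. Further members, given where a count or a disagreement between probe sets needed them, were named after their values were seen. The comparison and the gene lists were chosen with earlier results of these data known. The labels do not say whether equal replicate numbers pair the arrays, and the main fit has no block. On data simulated for 20% inhibition against baseline, 200 of 30517 probe sets were changed. The fit recovered 58% of 2-fold and 89% of 4-fold changes with 3 false calls. In the real comparison a far larger share passed, 35.6%, and the adjustment depends on that share. The recovery rates therefore do not give the sensitivity of the real comparison. A step on promoter motifs was not run.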

Additional observations from a re-analysis of the deposited data

Results flagged for a closer look

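In 16 of 360 groups of 4 arrays, 1 array stood apart from the other 3 by Dixon's test, which chance alone gives in about 1 group in 20. No explanation was tested for these arrays.

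Among the baseline arrays, MYB114 read 4108 in replicate 3 against 2946 to 3085 in the others. CYP11 read 3509 in replicate 4 against 2778 to 2826. WRKY32 read 1574 in replicate 2 against 1059 to 1133. Lower values stood apart for IFS1 (1588 in replicate 4 against 1781 to 1819), for the cryptochrome CRY1b1 (1254 in replicate 1 against 1439.6 to 1474) and for TIR1C (2064 in replicate 4 against 2637 to 2684).

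At 20% inhibition, replicate 3 was the low array for GSTU3 (3518 against 6411 to 6859), EIN4 (427 against 512 to 531) and TIR1C (1444 against 2071 to 2164). Replicate 4 was the low array for CYP17 (2148 against 2439.7 to 2495) and CDC48 (2475 against 3326 to 3437), and the high array for UBC4 (928 against 617 to 653) and PHR18 (610.2 against 408 to 426). High values stood apart for PDIL-1 (27372 in replicate 2 against 21205 to 21839.8), ERD15 (6906 in replicate 1 against 5515 to 5676) and ALDH10A2 (10090.2 in replicate 1 against 8678 to 8817).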

How the results depend on the processing

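The number of probe sets past the threshold at 20% inhibition ranged from 9479 to 10978 over the 8 fits that left out 1 array, with 4558 to 5161 higher and 4876 to 5817 lower. With the array background level as a covariate it was 7070, with 3560 higher and 3510 lower. The background level and the state moved together, and the cause of the drop was not tested. The other settings (fit over 8 arrays, quantile normalization, other filters, signals below background raised to it, array weights, an added constant of 32, foreign probe sets left out) gave 7633 to 11804, the lowest from 15259 probe sets tested. Testing all 61035 probe sets gave 9894 and moved the median change to 0.19. Deviations of arrays with the same replicate number correlated at 0.0705, 0.0780, -0.236 and -0.278, so the numbers were not taken as pairs. Arrays with different numbers correlated at -0.106 to 0.284, the highest being baseline replicate 3 with 20% inhibition replicate 4. Whether arrays share plants or runs across numbers was not tested. With the replicate block 10473 passed, 5008 higher and 5465 lower. Of the 135 genes chosen for the text that passed, 97 stayed past it in every setting that tested them, and 0 changed direction. The calls lost were 34 with the background covariate, 3 to 13 in the fits without 1 array, 11 over the 8 arrays, 10 with no filter, 5 with the block and 0 to 2 in the other settings. Brightness limits the data: 16.3% passed in the dimmest class and 51.5% in the brightest.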
